A study of Mus musculus with 4 samples.

Results

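Platelets carry RNA that their parent cells, the megakaryocytes, packed into them, and that RNA codes mostly for granule chemokines, adhesion receptors and cytoskeletal proteins. The lung holds both circulating platelets in its vessels and resident megakaryocytes that release platelets there, so whole-lung RNA contains a small amount of this transcript set. A group of 9 genes of that set are described here, namely Ppbp, Pf4, Tubb1, Gp9, Gp1ba, Gp6, Itga2b, Treml1 and Nrgn. They were found by their symbols among the 41079 genes of the deposited count table, and all 9 were present. The list was chosen by known function, but with the genotype differences of Ppbp and Tubb1 in these same libraries already seen, and the question was whether the other 7 moved with that pair. Every value of the 9 genes below is therefore a description of these libraries.

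Rab44 is a large Rab GTPase of granule-bearing immune cells, and the study asked what its loss does in ovalbumin (OVA)-induced allergic airway inflammation. Lung RNA was sequenced from 4 groups of female, age-matched adult C57BL/6-background mice and 1 library was made per group, from WT and Rab44-KO mice that were either normal or OVA-induced. The Rab44-KO line was made by CRISPR/Cas9 editing, with no cell-type-specific driver named, and was compared with WT littermates. OVA-induced mice had received 100 μg of OVA in alum into the peritoneum on days 0, 7 and 14, then 100 μg of OVA in 50 μL by the nose for 4 days, with lungs taken on day 21. Normal mice are labelled as untreated, although the protocol also names a PBS challenge. How many mice went into each library is not named, so the comparisons below are between libraries and have no replicate check and no p-values. Intervals are 95% and cover counting error only. Wherever 4 values stand in a row, the normal pair comes before the OVA-induced pair, and within a pair WT comes before Rab44-KO.

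The libraries held between 18112901 and 19910236 counts. Rab44 itself had 251 and 810 counts in the WT libraries and 1 and 0 in the Rab44-KO libraries, which matches the labels. Levels are given as CPM, the TMM-scaled counts relative to library size, which compare 1 gene between libraries, and as TPM, which also divides by gene length and allows different genes to be compared. The lung identity of the tissue was plain, with Sftpc, the surfactant protein of alveolar type 2 cells, at 181126 to 361981 counts.

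The platelet genes together were lowest in the normal Rab44-KO library and highest in the OVA-induced Rab44-KO library. Summed over the 9 genes, the level in normal lung was 99.79 CPM for WT (interval 95.37 to 104.4, from 1916 counts) and 57.59 CPM for Rab44-KO (54.16 to 61.18, from 1051 counts). In OVA-induced lung it was 73.32 CPM for WT (69.55 to 77.23, from 1420 counts) and 140.8 CPM for Rab44-KO (135.6 to 146.2, from 2746 counts). None of these 4 intervals overlapped. The set was thus lower in the knockout without OVA and higher in the knockout with OVA. Part of this sum is Ppbp and Tubb1, whose differences were known beforehand, so its intervals are a description only. The other 7 genes summed to 58.44, 38.74, 50.45 and 77.20 CPM, the same order over a smaller range. In bulk tissue, fewer platelets or megakaryocytes and less RNA in each of them cannot be told apart.

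**Figure D1:**
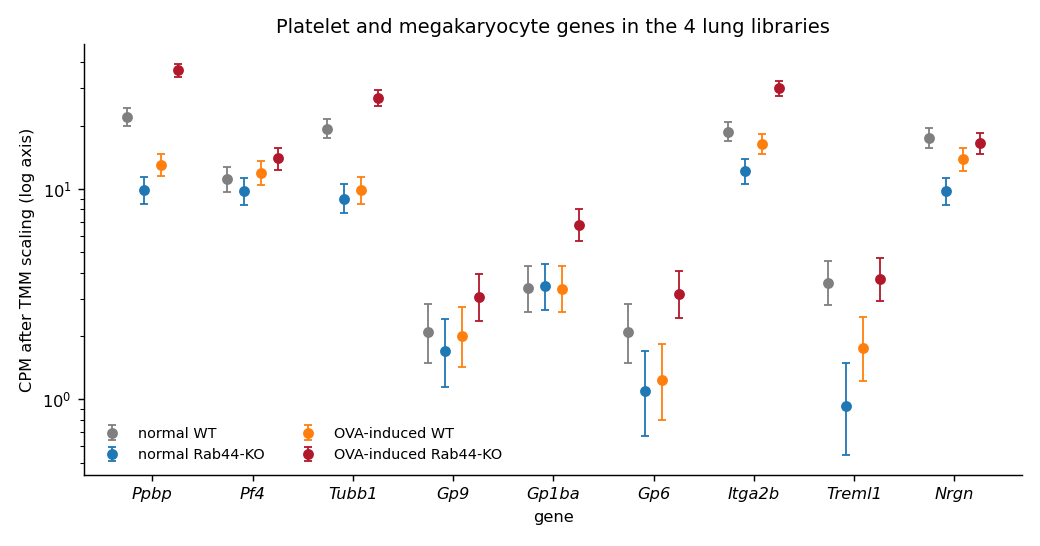
CPM of each of the 9 genes (y axis, logarithmic) in the 4 libraries (colours), 1 point per library with its exact 95% Poisson interval, which covers counting error only. For Ppbp, Tubb1 and Itga2b the normal Rab44-KO point is the lowest and the OVA-induced Rab44-KO point stands above the other 3, whereas the 4 points of Pf4 lie between 9.75 and 14.0 CPM.

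Ppbp, which encodes the precursor of the neutrophil-attracting platelet chemokine CXCL7, had the highest log2FC of the 9 in OVA-induced lung. It had 423, 180, 252 and 713 counts, or 22.0, 9.86, 13 and 36.6 CPM. Only the OVA-induced Rab44-KO library was above normal WT. The genotype difference, Rab44-KO over WT, was a log2FC of -1.16 in normal lung (-1.42 to -0.90, 2.23-fold lower) and 1.49 in OVA-induced lung (1.28 to 1.70, 2.81-fold higher). Read along the OVA axis, the same 4 counts were 1.69-fold lower with OVA in WT and 3.71-fold higher with OVA in Rab44-KO.

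Tubb1, the beta-1 tubulin of the platelet marginal band, had 371, 164, 191 and 528 counts, or 19.3, 8.99, 9.86 and 27.1 CPM. The normal Rab44-KO and OVA-induced WT libraries overlapped in their intervals, and both lay below normal WT, which lay below OVA-induced Rab44-KO. Its log2FC was -1.10 in normal lung (-1.38 to -0.84) and 1.46 in OVA-induced lung (1.22 to 1.70). The ratio of Tubb1 to Ppbp counts stayed between 0.741 and 0.911 in the 4 libraries. The 2 genes lie on different chromosomes, 2 and 5. Since the list was built on this pair with their differences already seen, nothing is read from their likeness.

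Pf4, which encodes the chemokine CXCL4 of the same alpha granules, followed this pattern far less. It had 214, 178, 230 and 272 counts, or 11.1, 9.75, 11.9 and 14.0 CPM. The order of the lowest and the highest library was as for Ppbp, but the whole range was small and the neighbouring intervals overlapped. Its log2FC of -0.19 in normal lung (-0.49 to 0.10) and of 0.23 in OVA-induced lung (-0.03 to 0.49) both had intervals that held 0. Ppbp and Pf4 are neighbours, 2371 bases apart on the plus strand of chromosome 5 in GRCm38. The number of Pf4 counts per Ppbp count was 0.506, 0.989, 0.913 and 0.381. The difference of the genotype log2FC between the conditions, OVA-induced minus normal, was 2.65 for Ppbp (2.32 to 2.99) and 0.42 for Pf4 (0.03 to 0.82), intervals that do not meet.

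The order of the chemokines per gene length changed with the library. Pf4 was at 51.0, 45.4, 48.1 and 70.9 TPM and Ppbp at 48.4, 22.1, 25.3 and 89.2 TPM, so that Ppbp was above Pf4 in OVA-induced Rab44-KO, near it in normal WT and below it in the other 2 libraries. Nrgn, Tubb1 and Itga2b came next in normal WT with 32.2, 22.9 and 13.5 TPM, followed by Treml1 with 6.83. Gp9, Gp1ba and Gp6 were the lowest, at 1.89, 1.72 and 0.696 TPM in that library.

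Itga2b encodes the alpha chain of the platelet fibrinogen receptor, integrin αIIbβ3, and is an early marker of the megakaryocyte line. It had 358, 220, 317 and 585 counts, or 13.5, 8.88, 10.5 and 24.1 TPM. The intervals of the 2 WT libraries overlapped, and the Rab44-KO libraries lay on either side of them. The log2FC was -0.63 in normal lung (-0.88 to -0.38) and 0.87 in OVA-induced lung (0.67 to 1.08). The beta chain gene Itgb3, which endothelial and other lung cells also express, moved the same way by less, with a log2FC of -0.23 (-0.38 to -0.09) and 0.63 (0.51 to 0.75). Itgb3 had 2.44 to 3.21 counts for each count of Itga2b.

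Gp6, the platelet collagen receptor, was a low gene with 40, 20, 24 and 62 counts. Its pattern was that of Ppbp and Tubb1, with a log2FC of -0.92 in normal lung (-1.78 to -0.12) and 1.36 in OVA-induced lung (0.66 to 2.10). Its signalling partner Fcer1g, the Fc receptor gamma chain that mast cells and myeloid cells share, went another way, with 464, 450, 1398 and 571 counts and a log2FC of 0.03 and -1.30. Treml1, which encodes the alpha-granule receptor TLT-1, had 69, 17, 34 and 73 counts. It had the lowest log2FC of the 9 in normal lung, -1.94 (-2.81 to -1.17, 3.84-fold lower), and 1.09 in OVA-induced lung (0.49 to 1.72). Its OVA-induced Rab44-KO level of 3.74 CPM was close to the 3.59 CPM of normal WT, unlike that of Ppbp or Tubb1.

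Gp1ba and Gp9 encode chains of the GPIb-IX-V complex, the platelet receptor for von Willebrand factor. Gp1ba had 65, 63, 65 and 132 counts, so 3 libraries were level at 3.36 to 3.45 CPM and OVA-induced Rab44-KO stood above them at 6.77 CPM (5.66 to 8.03). It was the only one of the 9 that was not lower in normal Rab44-KO, with a log2FC of 0.03 (-0.50 to 0.55), against 1.01 in OVA-induced lung (0.57 to 1.46). Gp9 had 40, 31, 39 and 60 counts, and its log2FC of -0.29 (-1.02 to 0.42) and 0.61 (0.01 to 1.23) lay at or near the limit of what these counts resolve. The other chains of the complex, Gp1bb and Gp5, were not among the 9 genes. Gp1bb had 41, 12, 26 and 61 counts and Gp5 had 65, 30, 38 and 97, and both were lower in normal Rab44-KO (log2FC -1.69 and -1.04) and higher in OVA-induced Rab44-KO (1.22 and 1.34). Per Gp1ba count there were 0.631, 0.190, 0.400 and 0.462 counts of Gp1bb.

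Nrgn encodes neurogranin, a calmodulin-binding protein known from neurons and also abundant in platelet RNA. It had 336, 178, 268 and 321 counts, or 17.5, 9.75, 13.8 and 16.5 CPM. It shared the low value in normal Rab44-KO (log2FC -0.84, -1.11 to -0.58). In OVA-induced Rab44-KO its log2FC was 0.25 (0.01 to 0.49), and in CPM it did not exceed normal WT. In TPM it was at 32.2, 18.3, 22.5 and 33.6, so which library was highest depended on the scale. The 8 neuronal markers measured for comparison had summed levels of 80.31, 70.47, 92.63 and 80.63 CPM. With OVA, 6 of them were lower in Rab44-KO than in WT, and the synaptic gene Snap25 had 16, 5, 69 and 0 counts. Rbfox3, which encodes the neuronal nuclear protein NeuN, was the neuronal marker with an interval below 0 in normal and above 0 in OVA-induced lung, with 84, 56, 43 and 87 counts and a log2FC of -0.51 (-1.03 to -0.01) and 1.0 (0.46 to 1.57). The part of neuronal RNA in the Nrgn values was not tested.

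Counted gene by gene, 8 of the 9 were lower in Rab44-KO than in WT in normal lung, 6 of them with an interval wholly below 0 (14.8% of all genes had one), and the median log2FC was -0.84 against 0.00 over all genes. The 3 genes Ppbp, Tubb1 and Treml1 were over 2-fold lower, while 2.0% of the 18718 genes with at least 10 counts were. In OVA-induced lung all 9 were higher in Rab44-KO, 8 with an interval above 0 as 29.7% of all genes had, and the median was 1.01 against -0.02 over all genes. A total of 5 were over 2-fold higher (Ppbp, Tubb1, Gp6, Treml1 and Gp1ba), against 8.40% of 19259 genes. Just inside the 2-fold limit lay Gp1ba with a log2FC of 1.01, and just outside it Itga2b with 0.87. With Ppbp and Tubb1 left out, the medians of the other 7 were -0.63 in normal and 0.87 in OVA-induced lung. Of these 7, 1 was over 2-fold lower in normal lung and 3 were over 2-fold higher in OVA-induced lung. Since the differences of the pair were known beforehand, nothing is read from the counts over all 9 genes.

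The OVA responses rest on the same 4 libraries and add no independent evidence. From normal to OVA-induced WT, 8 of the 9 genes were lower, with a median log2FC of -0.34, and Treml1 alone was over 2-fold lower (log2FC -1.03), against 5.20% of all genes. From normal to OVA-induced Rab44-KO all 9 were higher, with a median of 1.32 and every interval above 0, where 25.4% of all genes had such an interval. A total of 5 were over 2-fold higher, namely Treml1 (2.0), Ppbp (1.89), Tubb1 (1.59), Gp6 (1.53) and Itga2b (1.32), against 6.44% of all genes.

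**Figure D2:**
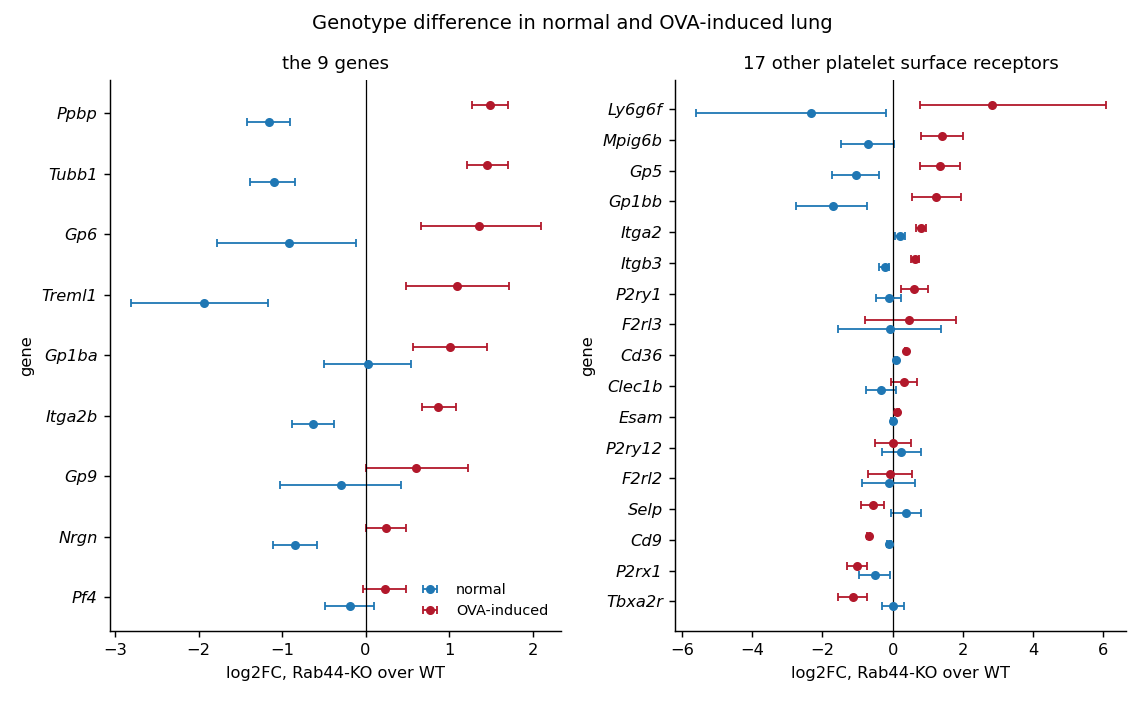
log2FC of Rab44-KO over WT (x axis) for the 9 genes (left) and for 17 of the 18 other platelet surface receptors (right, on a wider axis), in normal lung (blue) and OVA-induced lung (red), with exact 95% intervals of the count ratio that cover counting error only. In the left panel every red point lies to the right of its blue point, and Ppbp, Tubb1, Gp6, Treml1, Itga2b and Nrgn have blue intervals below 0 and red intervals above 0.

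The 6 genes Ppbp, Tubb1, Gp6, Itga2b, Treml1 and Nrgn had an interval below 0 in normal lung and above 0 in OVA-induced lung, a pattern of 3.29% of the 18233 genes measured in both comparisons, called low-then-high intervals from here on. In CPM, 7 genes (all but Gp1ba and Nrgn) had their lowest of 4 values in normal Rab44-KO and their highest in OVA-induced Rab44-KO, as did 5.46% of 19744 genes. Since the genes were picked with 2 of them known to do so, nothing is read from these shares. Ranked by the distance between their mean-centred log2 CPM profiles and the mean profile of Ppbp and Tubb1, over the 4 libraries and 16808 genes with at least 30 counts in the highest library, Gp6 came in at rank 4, Itga2b at 38 and Treml1 at 57. Gp9, Gp1ba, Nrgn and Pf4 were at ranks 218, 285, 355 and 1353. The nearest gene of all was Gp5, ahead of Ppbp and Tubb1 themselves. Among the 15 nearest genes outside that pair, Gp5, Gp6 and the platelet inhibitory receptor Mpig6b (rank 11) are platelet genes. The other 12 were Cyp2b19, Serpine3, Ankrd61, Chil5, Bach2os, 0610043K17Rik and the predicted genes Gm20652, Gm57537, Gm51442, Gm53681, Gm34036 and Gm25135, and these had at most 92 counts in any library. Gp5, Gp6 and Mpig6b were about as low, with at most 97, 62 and 87 counts.

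**Figure D3:**
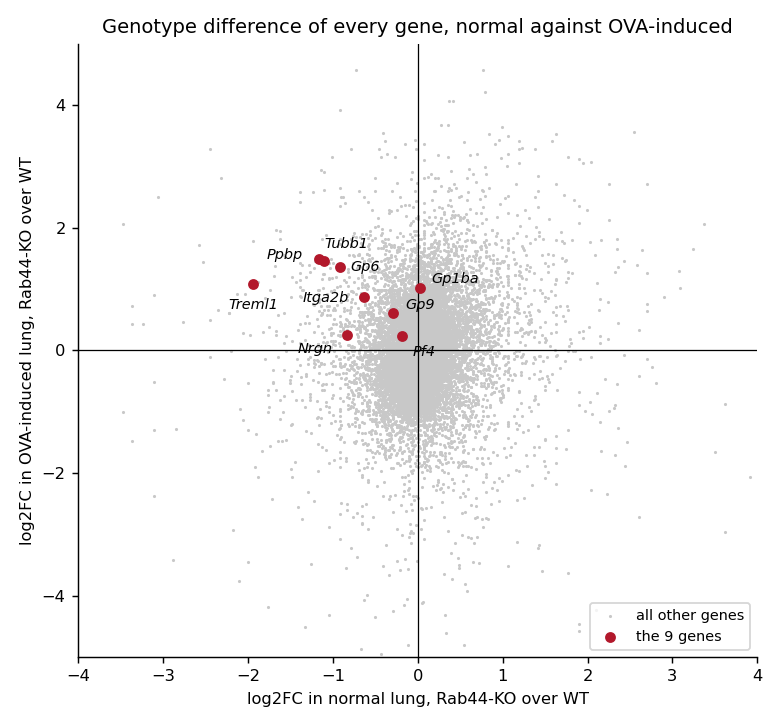
log2FC of Rab44-KO over WT in normal lung (x axis) against OVA-induced lung (y axis), with 1 grey point per gene among 18233 genes and the 9 platelet genes in red. Of the 9, 8 lie at the upper left and Gp1ba lies on the vertical axis, and 32 genes lie outside the axes.

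The genes are spread over 7 chromosomes. On GRCm38.p6 the plus-strand genes Ppbp (chr5:90768518-90770063) and Pf4 (chr5:90772435-90773383) share a cluster, and Tubb1 (chr2:174450595-174458380), Gp9 (chr6:87776131-87779786), Gp1ba (chr11:70639102-70643986) and Treml1 (chr17:48359916-48367176) are also on the plus strand. Gp6 (chr7:4362853-4397851), Itga2b (chr11:102453297-102469883) and Nrgn (chr9:37544493-37552745) are on the minus strand, and no other gene's span overlaps any of the 9 in the deposited table.

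The start-site sequences show what could be compared between members at the DNA level. The upstream 250 bases are given for Ppbp and Tubb1, whose values ran together, for Pf4, the near neighbour of Ppbp that followed least, for Itga2b, the megakaryocyte integrin, and for Gp1ba, the gene that was level in 3 libraries. They are RefSeq sequences on GRCm38.p6, written 5′ to 3′ on the gene's strand up to the base before an annotated start, which for Gp1ba lies just inside the gene's span, and capitals mark matches to the motifs named below.
Ppbp (chr5:90768268-90768517, plus strand): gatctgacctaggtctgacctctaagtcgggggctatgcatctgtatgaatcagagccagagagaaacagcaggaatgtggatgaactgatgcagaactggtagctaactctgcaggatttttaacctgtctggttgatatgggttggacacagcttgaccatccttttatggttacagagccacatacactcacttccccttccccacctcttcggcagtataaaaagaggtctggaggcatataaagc
Tubb1 (chr2:174450345-174450594, plus strand): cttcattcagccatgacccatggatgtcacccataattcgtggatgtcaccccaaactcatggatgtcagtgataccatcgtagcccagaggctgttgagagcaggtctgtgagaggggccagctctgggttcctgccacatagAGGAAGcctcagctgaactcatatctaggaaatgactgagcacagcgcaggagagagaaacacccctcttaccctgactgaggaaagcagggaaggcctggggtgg
Pf4 (chr5:90772185-90772434, plus strand): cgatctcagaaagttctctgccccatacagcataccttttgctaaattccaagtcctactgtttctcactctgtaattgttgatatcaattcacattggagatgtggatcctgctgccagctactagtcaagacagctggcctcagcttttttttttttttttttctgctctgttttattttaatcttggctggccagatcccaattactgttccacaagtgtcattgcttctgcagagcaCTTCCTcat
Itga2b (chr11:102469884-102470133, minus strand): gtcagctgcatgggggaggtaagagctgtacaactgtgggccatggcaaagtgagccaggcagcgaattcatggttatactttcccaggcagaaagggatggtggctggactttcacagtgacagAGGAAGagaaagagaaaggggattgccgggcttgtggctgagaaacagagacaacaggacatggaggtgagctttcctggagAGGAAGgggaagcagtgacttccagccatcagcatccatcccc
Gp1ba (chr11:70638872-70639121, plus strand): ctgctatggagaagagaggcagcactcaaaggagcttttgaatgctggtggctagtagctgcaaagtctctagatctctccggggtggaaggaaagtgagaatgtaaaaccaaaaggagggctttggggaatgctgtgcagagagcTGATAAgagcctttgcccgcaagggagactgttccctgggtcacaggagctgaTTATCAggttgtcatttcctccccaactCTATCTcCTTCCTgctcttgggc

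Megakaryocyte genes are known for promoters that bind GATA1, ETS factors such as FLI1, NF-E2 and RUNX1. In all, 4 motifs were searched on both strands in the 300 bases from 250 before to 50 after each start, and no 2 matches in the 9 genes overlapped. The GATA motif, NGATAN with A or T as its first base and A or G as its last, was found in 3 of the 9 genes and in 29.8% of 32851 promoters. Gp1ba had 3 matches, beginning 104, 51 and 23 bases before its start, Gp6 had 1 beginning 144 bases before, and Pf4 had 1 after its start. The ETS motif, NGGAAG with A or C as its first base, was found in 5 of the 9 (Pf4, Tubb1, Gp9, Gp1ba and Itga2b) and in 46.5% of promoters. The motif of RUNX factors, TGTGGT, was found in Gp9 alone and in 16.8% of promoters, and TGAGTCA, shared by NF-E2 and AP-1, in none of the 9 and in 5.20%. Ppbp, Treml1 and Nrgn held none of these letters, which says only that the letters are not in these windows.

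The wider platelet lists did not move as 1 block. Of 18 other platelet surface receptors, 12 were lower in normal Rab44-KO (median log2FC -0.11, 6 intervals below 0 and 2 above) and 13 were higher in OVA-induced Rab44-KO (median 0.42, 10 intervals above 0 and 4 below). Over all genes, 14.8% of intervals were below 0 and 14.6% above in normal lung, and 29.7% were above 0 and 33.8% below in OVA-induced lung. Those with low-then-high intervals were Gp1bb, Gp5, Itgb3 and Ly6g6f, the last on at most 15 counts. Mpig6b had 43, 25, 33 and 87 counts and a log2FC of -0.71 (-1.48 to 0.03) and 1.39 (0.80 to 2.01). P2rx1, the platelet ATP channel, and Cd9, a tetraspanin of many cell types, were lower in both conditions, at -0.51 and -1.01 for P2rx1 and at -0.10 and -0.68 for Cd9. Tbxa2r, the thromboxane receptor (-1.13), and Selp, which encodes P-selectin (-0.57), are the other receptors with an interval below 0 in OVA-induced lung and are named after their values were seen.

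Of 13 platelet granule proteins, most of which other lung cells also make, the median log2FC was -0.08 in normal and -0.24 in OVA-induced lung. The latter was -0.04 with the length trend removed, where 9 of the 13 were lower, and 0.08 as TPM, where the median of all genes was 0.29. Mmrn1, which encodes multimerin of platelets and endothelium, followed the 9 genes with 558, 428, 458 and 901 counts (log2FC -0.31 and 0.97), as Angpt1 (-0.28 and 0.75) and Thbs1 (-0.22 and 0.17) did in sign. The other granule genes with an interval below 0 in normal lung, Serpine2, Sparc, Pdgfb and Tgfb1, also had one below 0 in OVA-induced lung. Vwf, von Willebrand factor, was higher in both, at 0.26 and 1.0. Clu (0.27 and -0.24) and Srgn (0.21 and -0.36) had the reverse, an interval above 0 in normal and below 0 in OVA-induced lung. Srgn is named after its values were seen. Of 24 genes of platelet signalling, secretion and cytoskeleton, 18 were lower in normal Rab44-KO (median -0.14) and 15 lower in OVA-induced Rab44-KO (median -0.23). With the length trend removed 17 were lower in OVA-induced Rab44-KO (median -0.18), and as TPM the median was 0.10 beside 0.29 for all genes. In normal lung 12 of the 24 had an interval below 0, as did 14.8% of all genes. Alox12, the platelet 12-lipoxygenase, followed the 9 genes, with 257, 143, 183 and 331 counts and a log2FC of -0.77 (-1.08 to -0.47) and 0.84 (0.58 to 1.11). The other genes of this list with low-then-high intervals were Rasgrp2 (-0.33 and 0.34), Flna (-0.12 and 0.16) and Myh9 (-0.03 and 0.06), while Ptgs1 had the reverse (0.12 and -0.26). Tuba4a, Tuba8, Fermt3, Plek, Gng11 and Bin2 had an interval below 0 in both conditions, and Unc13d had one in normal lung (-0.20), with an OVA-induced log2FC of -0.03 (-0.14 to 0.07). Rgs18, a regulator of G protein signalling in platelets, shared only the lower value in normal Rab44-KO (-0.78), and its OVA-induced log2FC of -0.25 had an interval that held 0 (-0.63 to 0.13).

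Of the transcription factors of the lineage, 8 of the 10 measured were lower in normal Rab44-KO (median log2FC -0.14, 3 intervals below 0 and 2 above), and 9 of 11 were higher in OVA-induced Rab44-KO (median 0.36, 8 intervals above 0 and 2 below). Over all genes, 14.8% of intervals were below 0 and 14.6% above in normal lung, with 29.7% above and 33.8% below in OVA-induced lung. The pair that was lower in OVA-induced Rab44-KO was Nfe2 and Gata1. Nfe2, the factor of platelet release that is known to drive Tubb1, had 145, 76, 254 and 175 counts and was lower in Rab44-KO in both conditions (log2FC -0.86 and -0.55). Gata1, which eosinophils and mast cells use too, was at -0.82 (-1.84 to 0.13) and -1.20 (-1.90 to -0.54) on 15 to 64 counts. Gata2, which endothelial cells also express, was at -0.07 in normal and 1.18 in OVA-induced lung. Fli1 (-0.23 and 0.40) and Meis1 (-0.28 and 0.54) had low-then-high intervals.

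Among relatives of the 9 genes that serve other cells, none of 7 other beta tubulins, 3 neighbouring CXC chemokines and 5 other TREM family genes measured in both comparisons had low-then-high intervals. Over all genes 3.29% did, so nothing is read from a count of 0 in lists this short. Trem2 and Cxcl15 had the reverse, an interval above 0 in normal and below 0 in OVA-induced lung. In normal lung 6 of the 7 other beta tubulins were lower in Rab44-KO, as Tubb1 was (median log2FC -0.18). Of the 7, 5 had an interval below 0, as did 14.8% of all genes. All 7 were lower in OVA-induced Rab44-KO (median log2FC -0.82), except that Tubb4b turned higher as TPM or with the length trend removed. Cxcl15, a chemokine of lung epithelium, was at 0.33 and -0.46. The chemokine genes Cxcl5 and Cxcl1 were lower in OVA-induced Rab44-KO, at -1.59 and -1.24. Treml4, the TREM gene whose lowest value was in normal Rab44-KO and highest in OVA-induced Rab44-KO, had 118, 99, 167 and 172 counts, and its log2FC of -0.18 (-0.58 to 0.22) and 0.03 (-0.28 to 0.35) had intervals that held 0. Trem1 was higher in both conditions (0.67 and 1.12) and Trem2, a macrophage receptor, was at 0.62 and -2.53. Of 10 ligands and partners, 8 were higher in normal Rab44-KO (median 0.25, 4 intervals above 0 against 14.6% of all genes). In OVA-induced Rab44-KO 8 were lower (median -0.81, 8 intervals below 0 against 33.8% of all genes). The chemokine receptor gene Cxcr1 was among the latter, with 51, 60, 1187 and 95 counts and a log2FC of 0.31 and -3.65, whereas Cxcr2, the CXCL7 receptor of neutrophils, was at 0.73 and 0.36. Col1a1 (0.12 and -0.33) and Col1a2 (0.08 and -0.64), named after their values were seen, had intervals above 0 in normal and below 0 in OVA-induced lung.

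Other cells of blood and lung were set beside the platelet genes, since blood in the lung vessels carries red cells and leukocytes as well as platelets. Summed erythroid markers were at 1831, 1891, 1717 and 1504 CPM, highest in normal Rab44-KO and lowest in OVA-induced Rab44-KO, where the platelet genes were lowest and highest. In OVA-induced lung the median log2FC of the 11 erythroid markers measured was -0.26, against 0.19 with the length trend removed and 0.07 as TPM, where all genes had 0.29, so its direction depended on the scale. Summed neutrophil markers were at 115.6, 143.2, 592.5 and 723.7 CPM and summed leukocyte markers at 5509, 6078, 11298 and 5672 CPM. In OVA-induced lung 7 of the 10 neutrophil markers were higher in Rab44-KO (median log2FC 0.45, and 0.80 with the length trend removed). Of the 10, 6 had an interval above 0, as did 29.7% of all genes. Of the 8 leukocyte markers, 7 were lower in that comparison (median -0.96, and -0.61 with the length trend removed). Eosinophil markers were at 36.98, 37.04, 79.10 and 41.03 CPM and mast cell and basophil markers at 283.4, 323.7, 293.1 and 332.5 CPM. No gene of these 5 lists that was measured in both comparisons had low-then-high intervals, but with 4 to 10 such genes in a list and 3.29% of all genes having them, nothing is read from that count. The reverse, above 0 in normal and below 0 in OVA-induced lung, was seen for the eosinophil receptor gene Ccr3 (0.50 and -2.39), for Retnlg (0.69 and -0.39), for the globin genes Hba-a2 (0.34 and -1.08) and Hbb-bs (0.08 and -0.07) and for Lyz2 (0.16 and -1.04). The OVA-induced values of Hbb-bs, Ptgs1 and Clu are smaller than the shift that TPM gives all genes in that comparison. So are those of the low-then-high genes Nrgn, Thbs1, Flna, Myh9, Pecam1 and Scgb1a1. The neutrophil collagenase gene Mmp8 and the red cell anion exchanger gene Slc4a1 did have their lowest value in normal Rab44-KO and their highest in OVA-induced Rab44-KO. Mmp8 had 57, 39, 163 and 400 counts and a log2FC of -0.47 (-1.10 to 0.14) and 1.28 (1.02 to 1.56). Slc4a1 had 31, 28, 85 and 114 counts and a log2FC of -0.07 (-0.86 to 0.71) and 0.41 (-0.00 to 0.84). In both genes the OVA-induced WT library lay above normal WT, unlike in Ppbp or Tubb1, and the part of red cells or neutrophils in the platelet values was not tested. Mmp8, Slc4a1, Treml4 and Rbfox3 are named after their values were seen.

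Endothelial markers moved with the platelet genes in part. Their sum was 3784, 3721, 2921 and 3781 CPM. Under OVA, 7 of the 8 were higher in Rab44-KO than in WT, as were 9264 of 19259 genes. Tek (-0.13 and 1.01) and Pecam1 (-0.15 and 0.12) had low-then-high intervals. Pecam1 is also a platelet surface protein. The median of the list was 0.00 in normal lung and 0.21 in OVA-induced lung, against -0.84 and 1.01 for the 9 platelet genes. Lung epithelial markers were at 41687, 40610, 40574 and 31861 CPM, with Scgb1a1 alone having low-then-high intervals (-0.03 and 0.14). The part of endothelial or epithelial cells in the platelet values was not tested.

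**Figure D4:**
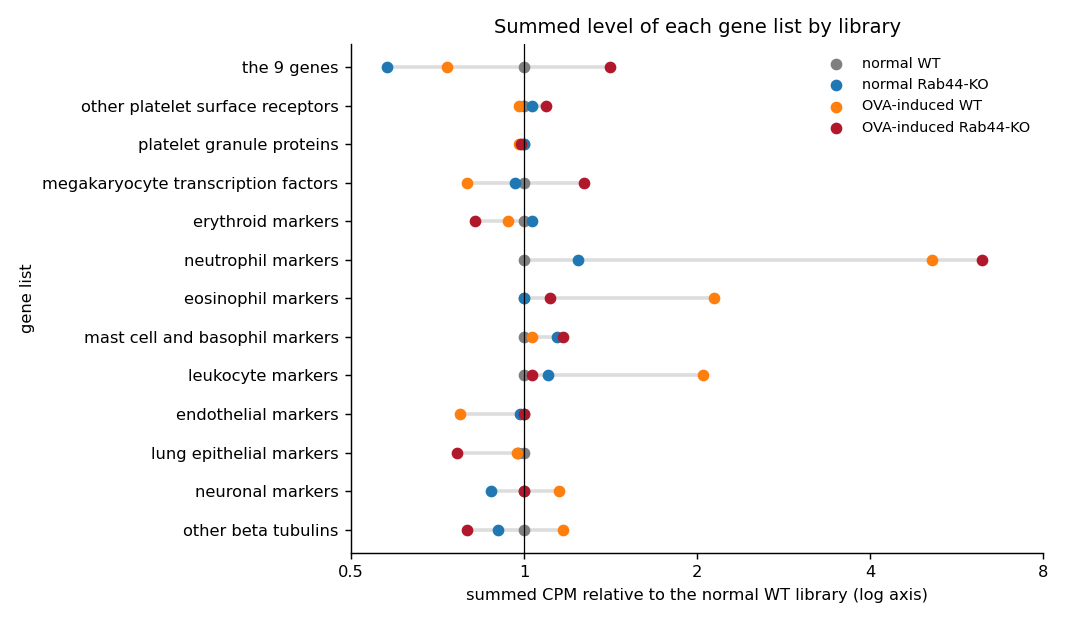
Summed CPM of each gene list relative to the normal WT library (x axis, logarithmic), 1 point per library (colours), with a grey line from the lowest to the highest. The 9 platelet genes run from 0.577 in normal Rab44-KO to 1.41 in OVA-induced Rab44-KO, while the erythroid markers run from 0.821 in OVA-induced Rab44-KO to 1.03 in normal Rab44-KO, although the direction of their median in OVA-induced lung turns with the length trend removed.

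The size of the OVA-induced difference moved with the scale of measurement. Measured as log2 TPM with a pseudocount of 0.1, the median of all genes in OVA-induced lung went from -0.02 to 0.29 and that of the 9 platelet genes from 1.01 to 1.28. Since that shift raises most genes, nothing is read from the members being higher as TPM. With the trend of log2FC on gene length removed, the OVA-induced log2FC of Pf4 went from 0.23 to 0.70, that of Nrgn from 0.25 to 0.69 and that of Ppbp from 1.49 to 1.97, while Gp6 went from 1.36 to 1.11 and Gp1ba from 1.01 to 0.92. The median of the 9 went from 1.01 to 0.98, and the number over 2-fold higher from 5 to 4.

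Within the summed counts the members kept their proportions only in part. Of the summed counts in normal lung, Ppbp made up 22.1% in WT (20.2 to 24.0) and 17.1% in Rab44-KO (14.9 to 19.5), and in OVA-induced lung 17.7% in WT (15.8 to 19.8) and 26.0% in Rab44-KO (24.3 to 27.6). Pf4 did the opposite, at 11.2%, 16.9%, 16.2% and 9.91%. Itga2b held between 18.7% and 22.3% in all 4 libraries, with overlapping intervals. Nrgn was at 16.9% to 18.9% in the first 3 libraries and at 11.7% in OVA-induced Rab44-KO.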

How the data were processed

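Lung RNA-seq of 4 mouse groups was analysed, with 1 library per group. The authors used a directional kit and paired-end reads, with HISAT2 for alignment to GRCm38 and featureCounts for counting, and deposited raw whole-number counts for each gene. The authors also deposited TPM, the counts per gene length scaled to a common total. Tool versions and the handling of strand and of multiply aligned reads are not given in the sources used here. Gene starts in the deposited table matched RefSeq on GRCm38 for 2.12% of 39405 genes, so positions are from RefSeq GRCm38.p6 and none was converted.

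Here, CPM used TMM factors (edgeR 4.0.16 in R 4.3.3, Python 3.11.15) over all 4 libraries. A gene entered a comparison with at least 10 counts in either library. Intervals are exact, Poisson for a level and Clopper-Pearson for a ratio or share, with an exact conditional interval for a difference of log2FC. With 1 library per group no test was made. The members and lists were chosen with earlier results of these data known. The rule for naming took from each list up to 4 genes with the largest log2FC per genotype comparison and at least 30 counts, besides those with an interval below 0 in normal lung. Not all of these are named, and the rest are given by counts and medians. It also took the 15 genes nearest in pattern to Ppbp and Tubb1. Alternatives were DESeq2 1.42.0 size factors, total counts, TMM on the compared pair, TPM with a pseudocount of 0.1, a prior count of 2, count minimums of 1 and 50, thinning to the smallest library, removal of a length trend, and leaving out Ppbp and Tubb1 or Nrgn. A gene of the receptor list is not reported here by name.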

Additional observations from a re-analysis of the deposited data

Results flagged for a closer look

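The genotype difference pointed one way in normal lung and the other way in OVA-induced lung, each beyond its counting interval, for 6 of the 9 platelet genes. Of the 18233 genes measured in both comparisons, 3.29% had this pattern. Ppbp and Tubb1, whose differences prompted the list, are among the 6, and without them the count is 4 of 7, so nothing is read from it. The log2 difference between the conditions, OVA-induced minus normal, was 3.03 for Treml1 (2.01 to 4.10), 2.65 for Ppbp (2.32 to 2.99), 2.56 for Tubb1 (2.19 to 2.93), 2.28 for Gp6 (1.17 to 3.41), 1.50 for Itga2b (1.18 to 1.82) and 1.09 for Nrgn (0.73 to 1.46). With 1 library per group these differences were not tested, and the intervals cover counting error alone.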

How the results depend on the processing

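Of 128 repeated medians, sums and counts over 2-fold, 115 stayed within the main value's interval or within 1.5 times the main count. The other 13 moved beyond it, and no median or sum changed sign. The interval of a median was taken over the members themselves and not from counting error. In OVA-induced lung it ran from 0.25 to 1.46, so a median that stayed within it says little. A count minimum of 1 left every member in and could not move a value. Without Ppbp and Tubb1, the log2FC of the summed counts was -0.59 in normal lung, 0.61 in OVA-induced lung, -0.21 for OVA in WT and 0.99 for OVA in Rab44-KO, against -0.79, 0.94, -0.44 and 1.29 with them. The members over 2-fold were then 1 in normal lung, 3 in OVA-induced lung and 3 for OVA in Rab44-KO, fewer because 2 of them had been removed. Without Nrgn the summed log2FC in OVA-induced lung was 1.06, and on TPM it was 1.13. For OVA in WT, the members over 2-fold were 1 in the main analysis, 2 by total counts, 2 by TPM, 2 with the length trend removed and 0 with a prior count of 2. Of 160 repeated values for single members, 9 moved and none changed sign.

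No paired analysis was possible because each group has 1 library. The length trend could not be removed from summed counts, so that value was not run. The levels rest on 17 to 713 counts per gene and library, and Gp6, Gp9 and Treml1 carry the widest intervals. The spread between mice cannot be had from these files, and no p-value is given.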
